A study of Homo sapiens with 4 samples.

Results

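H4 cells given the GLI inhibitor GANT61 were compared with H4 cells given its solvent, across every probe of the array. The rule for the members was the cell line and treatment in the sample labels, which give 2 of the 4 arrays of the series. The treated group is 1 array of H4 cells given GANT61 at 20 µM for 48 h, and its control is 1 array of H4 cells treated with the vehicle DMSO for 48 h. The 48 h is that of the sample titles, and the treatment protocol also names a shorter time. The other 2 arrays hold ES2 cells under the same treatments. They entered the normalization, the choice of probe for each gene and a side by side of list medians in the closing section. The labels give no genotype, clone or culture for either array, and both share the parental H4 line. H4 is an established human line commonly described as a neuroglioma, whereas the labels describe it as an epithelial ovarian adenocarcinoma from ascites. The series title asks whether blocking Hedgehog signalling slows cancer cell growth through autophagy. With 1 array a side there is no replicate, so no standard error and no p-value is given, and each difference is between these 2 arrays.

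GANT61 is a small molecule that keeps the zinc finger transcription factors GLI1 and GLI2 from binding DNA. In the Hedgehog pathway a ligand binds the receptor PTCH1, which releases the membrane protein SMO, and GLI factors then switch on genes of growth, patterning and survival. Glioma and other tumour cells can use GLI factors with or without the ligand, and they also depend on growth factor signalling through ERK, on the Hippo effectors YAP and TEAD, and on the cell cycle factors that act in S phase and mitosis.

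The H4 arrays detected between 27.3% and 30.6% of 47229 probes at a detection p under 0.01. For each gene the probe with the highest mean signal over all 4 arrays was used. A gene was counted as measured when at least 1 H4 array detected that probe, whatever its other probes, which gave 11527 genes. Of these, 9488 were detected on both arrays and 2039 on 1 array. Intensities are the authors' normalized values on a linear scale. Ratios are GANT61 over DMSO after background correction and quantile normalization, on the log2 scale or as folds. For a gene detected on 1 array, the brighter array was taken as the one that detected it, and its fold was computed against the detection floor and is written as "at least". Such a bound holds on the background-corrected scale alone. A gene detected on 1 array is measured through that array alone, so the filter bears on its direction in every list count. The printed intensities still contain background, so their plain ratio is often smaller, and the bound was above it for 79 of 105 named genes with a bound. Near-identical copies can share probe signal in the pregnancy-specific glycoproteins, metallothioneins, histones, HLA genes and small RNAs.

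Lineage markers matched the labelled ovarian epithelium poorly. Of 21 ovarian and Müllerian epithelial markers, 4 were detected on both H4 arrays (MUC1, KRT18, ARID1A and SLPI) and 2 on 1 array (KRT8 and FOLR1), while the defining factors PAX8 and WT1 and the surface proteins MUC16 and EPCAM were detected on neither. Of 26 markers of glia and neurons, both arrays detected 6 (OLIG2, SLC1A3, TUBB3, MAP2, NCAM1 and ENO2) and 1 array detected 2 (SOX2 and L1CAM), and GFAP, SOX10 and S100B were detected on neither. Mesenchymal markers were the most widely detected, 9 of 15 on both arrays and 3 on 1 array (COL1A1, COL3A1 and DCN). The intermediate filament gene VIM was at 5583 with GANT61 and 5686 with DMSO, while FN1, COL1A2 and ZEB1 were detected on neither. Of 15 blood cell markers, CD68 was detected on both arrays and MS4A1 on 1, and PTPRC and HBB on neither. The line is therefore called H4 here and is given no tissue.

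Most genes differed little between the arrays and a minority differed widely. The median log2 ratio of all measured genes was -0.05 with an SD of 0.59, and 42.1% of the genes lay within 1.2-fold. At least 2-fold higher with GANT61 were 469 genes (4.07%), and at least 2-fold lower were 408 (3.54%), together 7.61%. Of these, 344 and 281 were detected on both arrays, and with genes on 1 array counted by their bound the numbers were 402 and 318. The higher side reached further. At least 4-fold higher were 80 genes against 35 lower, and at least 8-fold higher were 18 against 2 lower. Genes on 1 array leaned to the lower side, with 1469 lower and 569 higher, so the share of all genes above 0 was 45.4%. Below 0 were 6277 of the 11527 genes. The list counts given later stand against these shares and the 4.07% and 3.54% past 2-fold. By signal level, the 2882 brightest genes held 133 at least 2-fold higher and 74 lower, and the 2882 dimmest held 93 and 97.

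**Figure D1:**
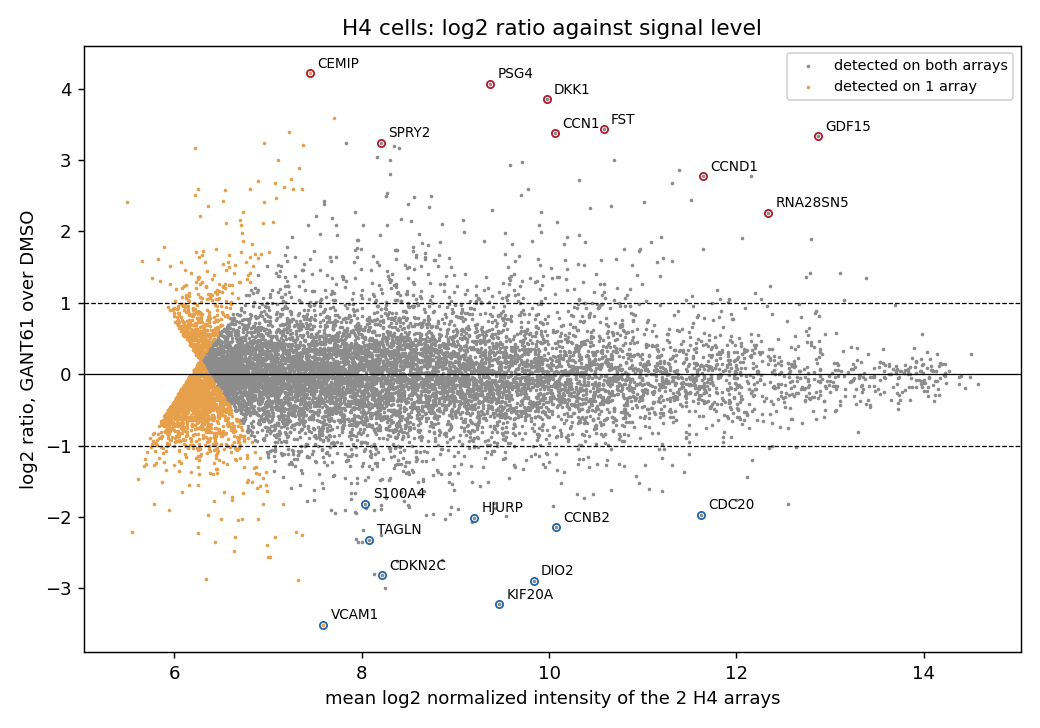
Log2 ratio of GANT61 over DMSO (y) against the mean log2 normalized intensity of the 2 H4 arrays (x) for 11527 genes, grey where both arrays detected the gene and orange where 1 did, with dashed lines at 2-fold. Named genes reach a log2 ratio of 4.21 (CEMIP, detected on 1 array) on the higher side and -3.51 (VCAM1, detected on 1 array) on the lower side.

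A measure of the error comes from genes with more than 1 probe. For 1993 genes both arrays detected at least 2 probes. Across these genes the log2 ratios of the brightest and next brightest probe had a Pearson r of 0.830, and their difference corresponded to an SD of 0.22 for 1 probe. These probes share both RNA samples and both arrays, so this spread leaves out the difference between cultures. Of 135 genes at least 2-fold different with such a second probe, 134 had a second probe on the same side and 77 a second probe also past 2-fold.

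Among genes detected on both arrays, the 25 highest ratios ran from 16.8-fold down to 5.65-fold, and the plain ratios of their intensities from 11.5 to 3.98. The head of this order was PSG4, a placental glycoprotein of the immunoglobulin family, with intensities of 2339 with GANT61 and 203 with DMSO (second probe at a log2 ratio of 2.39). DKK1, a secreted WNT antagonist, had 3281 with GANT61 and 293 with DMSO. GPNMB, a transmembrane glycoprotein, had 919 with GANT61 and 157 with DMSO (9.16-fold, second probe at 2.38). CCN2, a matricellular growth modulator, had 3969 with GANT61 and 568 with DMSO (8.04-fold). PLAUR, the urokinase receptor, had 707 with GANT61 and 174 with DMSO (5.82-fold), and the neurotrophin NTF3 had 695 and 175 (5.66-fold). Intracellular members included the phosphatase UBASH3B (771 with GANT61 and 150.5 with DMSO, 8.22-fold), the neuronal enolase ENO2 (832 and 160.4, 7.98-fold) and the early response gene IER3 (2022 and 323, 7.82-fold). KRT80, a keratin, had 1846 with GANT61 and 305 with DMSO (7.60-fold). TMEM158, a membrane protein induced by RAS, had 5938 with GANT61 and 930.1 with DMSO (7.25-fold). The imprinted gene PHLDA2 (6.99-fold), the membrane protein EMP1 (6.59-fold), the forkhead factor FOXD1 (6.06-fold) and the CaMKII inhibitor CAMK2N1 (5.67-fold) stood in the same range. MAD1L1, a spindle checkpoint protein, had 949.6 with GANT61 and 219 with DMSO (5.65-fold) and no second detected probe.

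The 25 lowest ratios among genes detected on both arrays ran from 9.33-fold to 3.81-fold lower, and the plain ratios of their intensities from 7.12 to 2.68. Several are known for roles in mitosis. KIF20A, a kinesin of cytokinesis, had 264 with GANT61 and 1876 with DMSO. CCNB2, a mitotic cyclin, had 507 with GANT61 and 1968 with DMSO (4.41-fold lower). HJURP, the chaperone that loads the centromeric histone, had 318 with GANT61 and 1098 with DMSO (4.02-fold lower). Other mitotic genes were ASPM, a spindle pole protein (3.90-fold lower), HMMR, a spindle and hyaluronan-binding protein (3.93-fold lower, second probe at a log2 ratio of -2.35), and CDCA3 (3.86-fold lower). The spindle protein DLGAP5 had 227 with GANT61 and 1063 with DMSO (6.07-fold lower, second probe -2.28). Outside the cell cycle, DIO2, the deiodinase that activates thyroid hormone, had 353 with GANT61 and 2135 with DMSO (7.43-fold lower). MGP, an inhibitor of calcification, had 162 with GANT61 and 563 with DMSO (5.10-fold lower), and the actin-binding protein TAGLN had 168 and 587 (4.98-fold lower). Of the zinc finger gene ZSCAN31 (7.93-fold lower), the carboxypeptidase inhibitor LXN (6.97-fold), NREP (6.10-fold), the aldo-keto reductase AKR1C3 (4.08-fold), the thymosin TMSB15A (3.98-fold) and SSBP2 (3.90-fold), TMSB15A was the brightest, with 383 with GANT61 and 1335 with DMSO. ANGPT1, a ligand of the TIE2 receptor, was 4.97-fold lower with a second probe at -1.39. VAV3, a guanine nucleotide exchange factor (4.76-fold), EFHD1, a calcium-binding protein (4.55-fold), SULF2, a heparan sulfatase (3.86-fold), and ENPP2, which makes lysophosphatidic acid (3.81-fold, second probe -1.77), were also lower.

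Some genes crossed the detection limit between the arrays. On the higher side CEMIP, which depolymerizes hyaluronan, had 716 with GANT61 and 95.2 with DMSO, a plain ratio of 7.52 and at least 10.4-fold higher after background correction. CA9, a carbonic anhydrase induced by hypoxia, had 499 with GANT61 and 113 with DMSO, a plain ratio of 4.43 and at least 6.98-fold higher after correction. KRT34, a hair keratin, was at least 6.69-fold, EDN1, the vasoconstrictor endothelin, at least 5.41-fold, and the antisense RNA IGFL2-AS1 at least 5.28-fold higher. On the lower side VCAM1, an adhesion molecule for leukocytes, had 116 with GANT61 and 626 with DMSO, a plain ratio of 5.41 and at least 7.85-fold lower after correction, and GYG2, a primer of glycogen synthesis, was at least 4.32-fold lower. PLAAT4, a phospholipid-modifying enzyme, was at least 4.10-fold, TMEFF2, a transmembrane protein with follistatin domains, at least 3.80-fold, the aldehyde dehydrogenase ALDH3A1 at least 3.58-fold, the dehydrogenase DHRS2 at least 3.52-fold and GPR162 at least 3.26-fold lower.

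**Figure D2:**
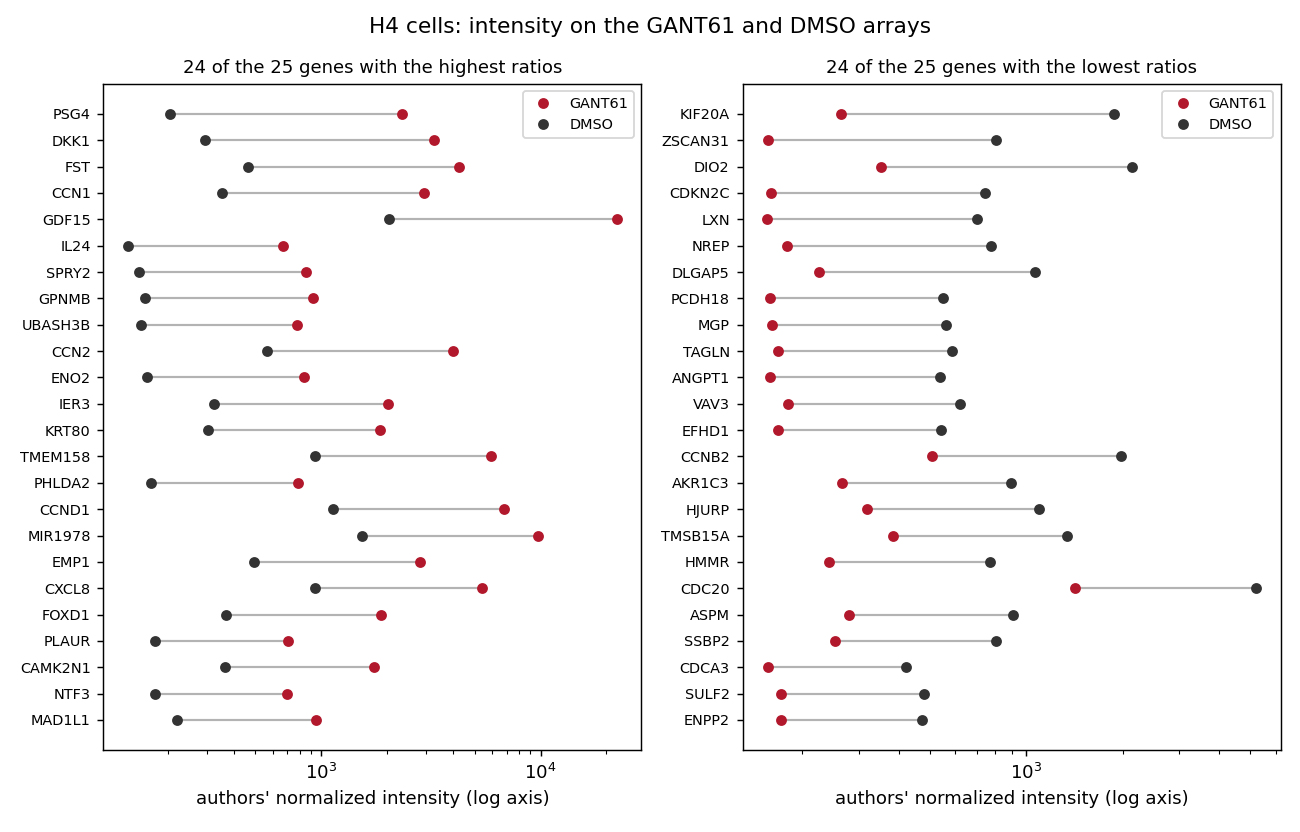
Authors' normalized intensity (x, log axis) on the GANT61 array (red) and the DMSO array (black) for 24 of the 25 genes with the highest ratios (left) and 24 of the 25 with the lowest (right) among genes detected on both arrays, 1 probe a gene. GDF15 was the brightest of the higher genes at 22346 with GANT61, and CDC20 the brightest of the lower ones at 1416 with GANT61 and 5204 with DMSO.

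Promoters of 3 of these genes are shown because each holds a motif of a factor that its gene is known for, and they were picked after the matches were seen. Each is the 250 bases before the start given by RefSeq (GRCh38.p14), on the gene's strand, with the matches in capitals, and positions count back from -1 at the base before the start. CCNB2 (chr15:59104896-59105145, plus strand) holds the cell cycle homology region TTTGAA at -29 and CCAAT boxes at -244, -120, -87 and -54. CCN2 (chr6:131951373-131951622, minus strand) holds the TEAD motif GGAATG at -169, -104 and -95. CXCL8 (chr4:73740319-73740568, plus strand), the neutrophil chemokine whose intensity was 5389 with GANT61 and 937 with DMSO, holds the AP-1 motif TGACTCA at -137.
CCNB2: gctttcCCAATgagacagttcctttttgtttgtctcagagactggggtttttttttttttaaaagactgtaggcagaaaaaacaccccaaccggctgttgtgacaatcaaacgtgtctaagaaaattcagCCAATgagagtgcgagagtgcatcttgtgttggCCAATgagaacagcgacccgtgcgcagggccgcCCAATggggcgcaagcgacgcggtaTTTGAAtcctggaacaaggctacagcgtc
CCN2: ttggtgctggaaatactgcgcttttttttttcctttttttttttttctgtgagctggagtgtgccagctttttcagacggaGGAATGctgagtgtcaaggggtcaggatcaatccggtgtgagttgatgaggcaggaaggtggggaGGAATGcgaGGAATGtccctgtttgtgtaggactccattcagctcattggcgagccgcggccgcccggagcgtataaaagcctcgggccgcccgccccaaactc
CXCL8: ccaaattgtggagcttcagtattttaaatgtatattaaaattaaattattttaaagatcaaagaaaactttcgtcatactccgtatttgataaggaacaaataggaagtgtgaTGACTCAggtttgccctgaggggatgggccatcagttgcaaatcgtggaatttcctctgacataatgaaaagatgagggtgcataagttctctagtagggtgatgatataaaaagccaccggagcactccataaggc

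Of the 11527 measured genes, 7959 had a promoter in the RefSeq table, each window running from 250 bases before to 50 after the start. Matches were counted on either strand. TTTGAA, the cell cycle homology region that the DREAM and MuvB complexes bind, was in 25.7% of the 303 promoters of genes at least 2-fold lower, 10.1% of the 318 of genes at least 2-fold higher and 9.88% of all 7959. The CCAAT box, bound by NF-Y, was in 50.5% of the lower, 35.2% of the higher and 38.0% of all. Among the lists, TTTGAA was in 8 of 12 promoters of mitotic kinesins and in 13 of 31 of centromere, kinetochore and checkpoint genes, and in 1 of 24 of homologous recombination and Fanconi genes. The AP-1 motif TGACTCA went the other way, with 7.55% of the higher, 2.31% of the lower and 3.08% of all. The remaining motifs differed less between the sets. TEAD GGAATG was in 11.6% of the higher, 11.2% of the lower and 10.7% of all, and the hypoxia element ACGTG was in 26.1%, 26.4% and 27.5%. The E2F motif TTTCCCGC was in 1.89% of the higher, 2.64% of the lower and 2.65% of all, and its variant TTTGGCGC in 0 of 318 higher promoters, 3.30% of the lower and 1.22% of all. The other motifs (TTCGAA as a CHR variant, TCACGTGA of lysosomal genes, which contains the hypoxia element, TCACCCCAC of sterol genes, TGCACNC and TGCGCNC of metal response, and TGATGNAA of ATF4) differed by at most 3.11 percentage points between these sets. The GLI motif GACCACCCA was in 1 promoter of each set and in 0.201% of all measured. By list, it was in 0 of 6 promoters of Hedgehog genes and 0 of 8 of GLI targets. TCACCCCAC was in 0 of 24 of sterol genes, and TGACTCA in 0 of 13 of ERK feedback genes. GGAATG was in 3 of 11 of YAP and TEAD genes, and TGCACNC in 4 of 16 of metallothioneins and zinc transporters. Over all 27305 promoters of the table, TTTGAA was in 15.4%, CCAAT in 35.7%, TGACTCA in 4.92%, TTTCCCGC in 1.66%, TTTGGCGC in 0.659%, TTCGAA in 1.45%, TCACGTGA in 1.04%, TCACCCCAC in 0.425%, TGCACNC in 11.9%, TGCGCNC in 20.0%, TGATGNAA in 3.67%, GGAATG in 14.0%, ACGTG in 21.6% and the GLI motif in 0.249%. The median GC content of the windows also differed, at 68.0% for the higher, 61.7% for the lower and 65.0% for all measured genes, and its part in these shares was not tested. A match is a run of letters and not a bound site.

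**Figure D3:**
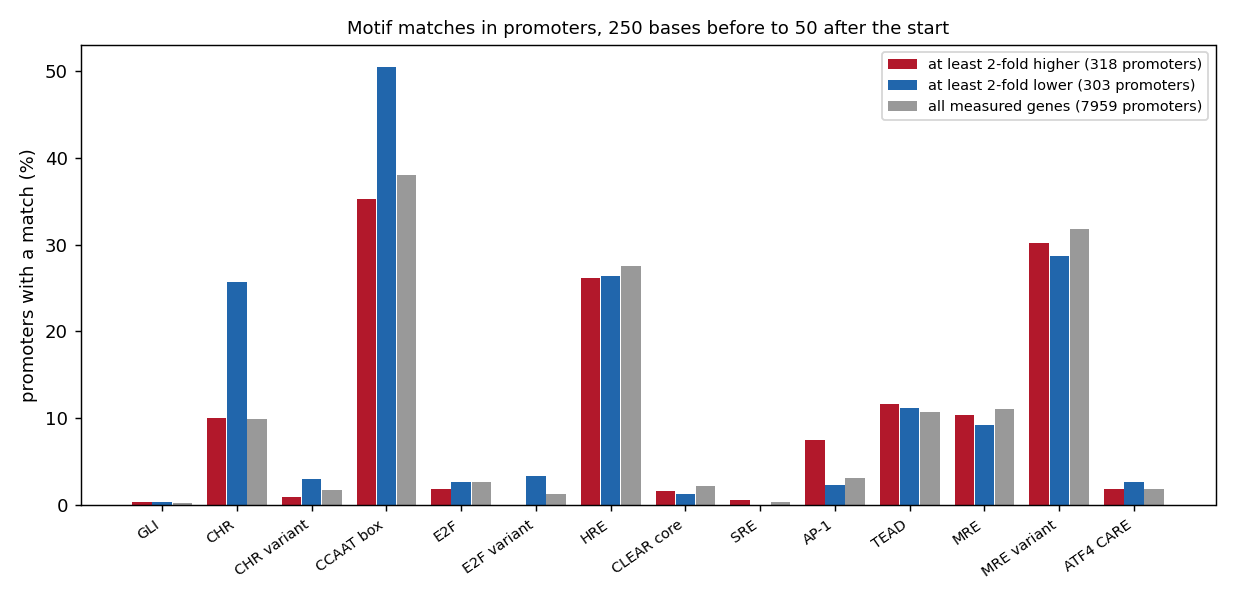
Share of promoters with at least 1 match (y, %) for each motif (x), for genes at least 2-fold higher (red, 318 promoters), at least 2-fold lower (blue, 303) and all measured genes (grey, 7959). The bars differ most for the CHR, the CCAAT box and AP-1.

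The Hedgehog pathway itself was little measured. Of 19 receptors, regulators and GLI factors, 8 were measured. Of these 2 were higher and 6 lower, their median log2 ratio was -0.26 against -0.05 for all genes, and none was past 2-fold by its bound. That median was -0.01 when members that neither array detected were included, against -0.004 for all genes. KIF7, a ciliary kinesin that regulates GLI, had 241 with GANT61 and 169 with DMSO (1.68-fold higher). DISP1, which releases the ligand, had 149 with GANT61 and 165 with DMSO, and SPOP, the ubiquitin ligase adaptor for GLI, had 933 and 1279 (1.40-fold lower). SMO was at 147 with GANT61 and 164 with DMSO (log2 ratio -0.27) and GLI3 at 154 and 156 (-0.04). GLI1 was detected on 1 array at 109 with GANT61 and 130 with DMSO, and no fold is given. GAS1, a co-receptor, was at least 1.77-fold lower and the orphan receptor GPR161 at least 1.32-fold higher. These signals lie near the detection limit, apart from SPOP. The list of GLI targets was split, 9 higher and 7 lower of 16 measured. Past 2-fold were 4 higher and 2 lower, against 4.07% and 3.54% of all genes. The list median was 0.31, and 0.12 with undetected members. Its highest ratio was that of FST, an activin-binding protein, with 4235 with GANT61 and 464 with DMSO (10.8-fold higher). JAG1, a Notch ligand, had 231 with GANT61 and 131 with DMSO (2.63-fold higher), SOX9 had 592 and 221 (3.35-fold), and VEGFA had 707 and 390.4 (1.95-fold). WNT5A had 234 with GANT61 and 425 with DMSO (2.13-fold lower), and the transcription factor SNAI2 had 606 and 1251 (2.17-fold lower).

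Feedback regulators of ERK signalling, listed with the ETS factors ETV4 and ETV5 that ERK induces, formed the list with the highest median. Of 18 measured genes, 17 were higher and 13 at least 2-fold higher (12 by their bound), against 4.07% of all genes. The median log2 ratio was 1.65 (1.36 at the bounds). It was 1.51 over the 12 genes detected on both arrays and 1.18 with undetected members. The detection filter itself favours the direction of the genes detected on 1 array. Sprouty proteins block receptor tyrosine kinase signalling. SPRY2 had 849 with GANT61 and 148 with DMSO (9.46-fold higher), and SPRY1, with 370.3 and 117 and a plain ratio of 3.17, was at least 4.94-fold higher after correction. SPRY4 was at least 1.37-fold higher. Among the dual specificity phosphatases, which remove phosphate from MAP kinases, DUSP1 had 2683 with GANT61 and 601 with DMSO (5.00-fold) and DUSP5 had 691 and 203 (4.50-fold). DUSP6 was at least 4.69-fold and DUSP4 at least 2.59-fold higher, and DUSP14 was 2.53-fold higher. DUSP2 was the exception, at least 1.31-fold lower. The ETS factor ETV5 had 1220 with GANT61 and 418 with DMSO (3.21-fold), ETV4 was at least 1.32-fold higher, PHLDA1 was 3.61-fold higher (second probe at a log2 ratio of 0.86), SPRED2 2.27-fold and ERRFI1, an inhibitor of EGFR, 2.04-fold.

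Receptors and ligands upstream of ERK were fewer. In the EGF family 5 of 15 genes were measured. EGFR itself had 466 with GANT61 and 183 with DMSO (3.39-fold higher, second probe at 1.01), its ligand TGFA had 332 and 162 (2.75-fold, second probe at 1.56), and HBEGF was at least 2.70-fold higher. NRG4 (log2 ratio -0.51) was lower. Of the 5, 3 were at least 2-fold higher, against 4.07% of all genes. The median was 1.46, and 0.26 when members that neither array detected were included. Immediate early factors downstream gave 14 higher and 2 lower of 16, with a median of 0.47. Of the 16, 7 were at least 2-fold higher (5 by their bound) and 1 lower, against 4.07% and 3.54% of all genes. MAFF, a small MAF factor, had 450.3 with GANT61 and 138 with DMSO (5.37-fold), KLF6 had 1978 and 582 (3.80-fold, second probe at 2.07) and KLF2 had 690.4 and 264 (3.12-fold). FOSL1, the AP-1 subunit FRA1, was at least 3.23-fold higher, KLF4 at least 1.98-fold and FOSB at least 1.19-fold, and ATF3 was 2.21-fold higher. EGR1 went the other way, with 201 with GANT61 and 366 with DMSO (2.22-fold lower).

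**Figure D4:**
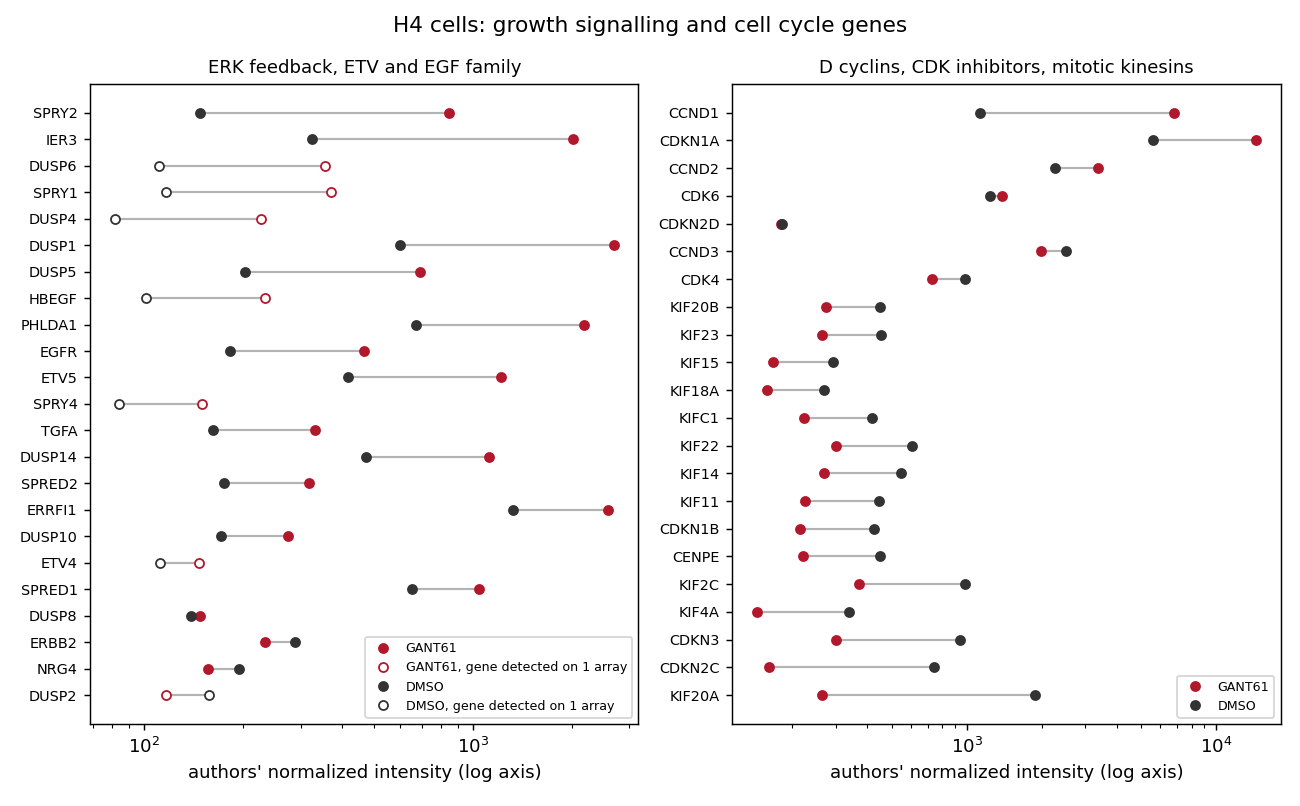
Authors' normalized intensity (x, log axis) on the GANT61 array (red) and the DMSO array (black) for ERK feedback, ETV and EGF family genes (left) and for D cyclins, CDK inhibitors and mitotic kinesins (right), with open symbols for genes detected on 1 array. SPRY2, at 849 with GANT61 and 148 with DMSO, and KIF20A, at 264 and 1876, mark the ends of the ratios in the panels.

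Other growth factor families differed less as groups. FGF, PDGF and VEGF genes had a median of 0.19 (9 higher and 4 lower of 13), with VEGFC, a lymphatic growth factor, 2.80-fold higher (582 with GANT61 and 248 with DMSO) and the receptor PDGFRB 2.03-fold lower (235 and 409). Eph receptors and ephrins had a median of -0.37 over 9 genes (-0.08 with undetected members). EPHA2, however, was 2.86-fold higher (249 with GANT61 and 132 with DMSO) and EFNB2 2.40-fold (506 and 248). EPHA4 was at a log2 ratio of -0.71. The IGF axis had a median of 0.76 (0.27 with undetected members). Of its 13 measured genes, 6 were at least 2-fold higher and 1 lower, against 4.07% and 3.54% of all genes. The stanniocalcins STC2 (1729 with GANT61 and 459.7 with DMSO, 4.28-fold) and STC1 (1015 and 302, 3.96-fold), which inhibit the protease PAPPA, the adaptor IRS2 (472 and 176, 3.67-fold), IGF2R (2.29-fold) and IGFBP7 (2.26-fold) were higher, and PAPPA at least 1.94-fold higher. IGFBP3, the main serum carrier of IGF, had 856 with GANT61 and 1783 with DMSO (2.22-fold lower, second probe -1.11).

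YAP and TEAD genes were split between targets and factors. Their median was 1.02 over 17 measured genes and 0.22 with undetected members included. Of the 17, 9 were at least 2-fold higher and 1 lower, against 4.07% and 3.54% of all genes. The targets CCN1, with 2954 with GANT61 and 350.4 with DMSO, CCN2 and ANKRD1 (413 and 125, at least 5.62-fold higher) had the highest ratios. MYOF (2.89-fold, second probe at 1.68), FJX1 (2.72-fold), DLC1 (at least 2.42-fold), WWC1 (at least 2.16-fold), GADD45A (2.10-fold) and the tissue factor gene F3 (2.02-fold) followed. Of the factors and cofactors, TEAD4 (log2 ratio 0.05) and VGLL4 (-0.07) were close to the median of all genes, TEAD2 had 633 with GANT61 and 1677 with DMSO (2.89-fold lower), and YAP1 had a log2 ratio of -0.51. Actin and focal adhesion genes had a median of 0.19 over 27, with the calponin CNN3 (2206 with GANT61 and 1040 with DMSO, 2.30-fold) higher. TAGLN was 4.98-fold lower, and PDLIM7 was 2.11-fold lower on its brightest probe but had a log2 ratio of -0.07 on the second.

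Matrix and adhesion genes stood on both sides. Integrins and laminins had a median of 0.12 over 19, and ITGA2, a collagen receptor subunit, had 894 with GANT61 and 256 with DMSO (4.30-fold higher). ITGA3 (2.39-fold) and ITGB5 (2.26-fold, second probe at 1.21) were higher, and ITGB8 2.06-fold lower. Collagens had a median of -0.13 over 15, and 0.04 with undetected members. COL13A1, a transmembrane collagen, was at least 3.79-fold higher and COL6A3 2.08-fold (4677 with GANT61 and 2324 with DMSO), whereas COL5A2 had 372 and 1211 (3.65-fold lower), COL3A1 was at least 3.75-fold and COL1A1 at least 1.19-fold lower. Proteases and TIMPs were higher in 11 of 15, with 7 at least 2-fold, against 4.07% of all genes. Their median was 0.69 (0.14 with undetected members). The plasminogen activators PLAT (472 with GANT61 and 176 with DMSO, 3.66-fold) and PLAU (1183 and 481, 2.64-fold) were higher beside their receptor PLAUR. TIMP3, an inhibitor of metalloproteases, had 832 with GANT61 and 201 with DMSO (5.59-fold), ADAMTS1 439 and 184 (3.13-fold), TIMP2 was 2.15-fold and MMP3 2.06-fold higher. Serpins had a median of 0.62 over 10 (0.35 at the bounds and 0.05 with undetected members), with SERPINB8 3.14-fold (second probe at 1.96), SERPINE2 2.13-fold and SERPINB2 at least 4.41-fold higher. Of 8 hyaluronan genes, CEMIP and the receptor CD44 (10666 with GANT61 and 5283 with DMSO, 2.05-fold) were higher and HMMR lower, with a median of -0.15 that was 0.07 at a detection p under 0.05.

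Cadherins and mesenchymal markers lay on the lower side. Of 11 cadherins and protocadherins, 9 were lower and 3 at least 2-fold, against 3.54% of all genes. Their median was -0.59 (-0.16 with undetected members), and -0.52 over the 8 detected on both arrays. PCDH18 had 159 with GANT61 and 550 with DMSO (5.11-fold lower), CDH11 had 251 and 544 (2.56-fold lower), and PCDH20 was at least 2.17-fold lower. Of 12 mesenchymal markers, 9 were lower and 3 higher, with a median of -1.07. Of the 12, 7 were at least 2-fold lower (6 by their bound), against 3.54% of all genes. VIM and ACTA2 differed by 1.03-fold, and CDH2 was 1.18-fold higher. The proteoglycan LUM had 1132 with GANT61 and 3211 with DMSO (3.05-fold lower), S100A4 had 185 and 489 (3.52-fold lower), and DCN was at least 2.37-fold lower. The remaining lineage lists differed less. Glial and neural markers had a median of 0.39 over 8 (0.07 with undetected members), with 6 higher and 2 lower. OLIG2, an oligodendrocyte factor, had 304 with GANT61 and 142 with DMSO (3.13-fold higher), and SLC1A3 had a log2 ratio of -0.50. The ovarian list had -0.52 over 6 (-0.11 with undetected members) with none past 2-fold, and the 2 blood markers -0.06. HOX genes had a median of -0.20 over 17 with none past 2-fold, HOXB7 being 1.52-fold lower.

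Ligands and inhibitors of the TGF-beta family went both ways. Of 24 measured, 8 were at least 2-fold higher (7 by their bound) and 3 lower, against 4.07% and 3.54% of all genes. The median was 0.13, and -5.69e-04 with undetected members. On the higher side stood the activin-binding proteins FST (4235 with GANT61 and 464 with DMSO) and FSTL3 (560.0 and 259, 2.54-fold), the stress hormone GDF15, BMP2 (at least 4.21-fold), INHBB (at least 1.91-fold), the receptor TGFBR2 (2.17-fold, second probe at 0.72) and BMP7 (2.07-fold). Of the transcriptional targets of BMP signalling, ID1 and SMAD6 had log2 ratios of -0.29 and -0.42 and SMAD7 one of 0.04, while others were more than 2-fold lower: ID2 had 265 with GANT61 and 584 with DMSO (2.58-fold, second probe -1.49), ID3 1423 and 2856 (2.08-fold), and the pseudoreceptor BAMBI 523 and 1236 (2.52-fold). WNT genes had a median of 0.17 over 23, and -0.02 with undetected members, so this list has no settled direction. Besides DKK1, LEF1, a nuclear effector and target of WNT, had 182 with GANT61 and 500.0 with DMSO (3.68-fold lower, second probe -1.54), the receptor FZD4 had a log2 ratio of -0.90, and AXIN2, a feedback target, was at least 1.38-fold lower. Notch genes had a median of 0.43 over 13 with JAG1 alone past 2-fold, and NOTCH1 was 1.57-fold and HES6 1.52-fold higher.

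Mitotic kinesins had the lowest median of the 46 lists, and the inhibitors and cyclins of G1 were divided. All 12 measured mitotic kinesins were lower, 10 at least 2-fold against 3.54% of all genes, with a median of -1.22. KIF4A had 144 with GANT61 and 337 with DMSO (3.43-fold lower), KIF2C 369 and 986 (2.96-fold), CENPE 221 and 449 (2.45-fold) and the spindle motor KIF11 224 and 443 (2.37-fold, second probe -1.72). KIF23, at a log2 ratio of -0.98, had a second probe at 0.17. Transport kinesins differed in direction, with 7 of 10 higher, a median of 0.38 and the axonal motor KIF1A at 403 with GANT61 and 139 with DMSO (4.65-fold higher).

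Centromere, kinetochore and checkpoint genes were lower in 36 of 38, of which both arrays detected 31 of the 38. At least 2-fold lower were 17 (14 by their bound) and 1 higher, against 3.54% and 4.07% of all genes. The median was -0.96, and -0.88 over genes detected on both arrays. CENPA, the centromeric histone that HJURP loads, had 228 with GANT61 and 666 with DMSO (3.64-fold lower, second probe -1.63). Of the outer kinetochore, NDC80 was at least 2.89-fold and NUF2 at least 1.93-fold lower, SPC24 2.84-fold and SPC25 2.17-fold. Of the checkpoint, BUB1 had 315 with GANT61 and 777 with DMSO (2.85-fold lower), TTK was 2.10-fold lower and the cohesin protector SGO2 at least 2.71-fold lower. CENPF was 2.91-fold, CENPM 2.63-fold, and OIP5 and ZWINT 2.45-fold lower. MAD1L1 was the gene past 2-fold in the other direction.

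The D cyclin CCND1 had 6805 with GANT61 and 1127 with DMSO (6.85-fold higher), and CDKN1A, the inhibitor p21, had 14453 and 5583 (2.54-fold higher). CDKN2D, the p19 inhibitor, had a log2 ratio of -0.04, and other inhibitors were lower: CDKN2C, the p18 inhibitor of CDK4 and CDK6, had 161 with GANT61 and 743 with DMSO (7.03-fold), the phosphatase CDKN3 300.1 and 939 (3.69-fold) and CDKN1B, the inhibitor p27, 214 and 425 (2.43-fold, second probe -0.80). This list of 10 genes had a median of -0.20. E2F factors, pocket proteins and cyclins had a median of -0.04 over 20, with E2F2 2.80-fold, the cyclin CCNA2 2.21-fold and CDK2 2.01-fold lower (second probe -0.54), and E2F7, a repressor, at a log2 ratio of 0.85. Homologous recombination and Fanconi genes had a median of -0.65 and were lower in 24 of 28, against 6277 of all 11527 genes. At least 2-fold lower were 3 of the 28, against 3.54% of all genes. These were FANCD2 (229 with GANT61 and 516 with DMSO, 2.74-fold), its ubiquitin-conjugating enzyme UBE2T (487 and 1032, 2.25-fold) and FANCG (655 and 1323, 2.14-fold). In the MYC network the median was 0.36 over 10. MYC had 497 with GANT61 and 291 with DMSO (1.92-fold higher), MXD1, an antagonist of MYC, was at least 2.05-fold higher, and MXD3 at least 2.21-fold lower. No measured BCL2 family gene was past 2-fold (8 of 14 higher, median 0.20). BID, which links death receptors to mitochondria, was 1.85-fold higher (second probe at 1.06) and BCL2L1, which encodes BCL-XL, 1.79-fold higher.

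Autophagy genes were higher in part. ATG8 family members and cargo receptors were higher in 11 of 14, with a median of 0.55 (0.17 with undetected members). Of the 14, 3 were at least 2-fold higher, against 4.07% of all genes. TOLLIP, a receptor for ubiquitinated cargo, had 290.4 with GANT61 and 155 with DMSO (2.48-fold), MAP1LC3B, which encodes the lipid-anchored LC3B, 1331 and 581 (2.47-fold) and the mitophagy receptor BNIP3 6559 and 2933 (2.36-fold). OPTN had a log2 ratio of 0.85. The machinery of initiation and conjugation had a lower median of 0.14 over 23, with 15 higher. Among these WIPI1, which binds early autophagosome membranes, had 727 with GANT61 and 321 with DMSO (2.59-fold), while WIPI2 was 1.95-fold and ATG12 1.81-fold higher (second probe at 0.82).

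Sterol genes were higher, with 25 of 30 above 0 and a median of 0.99. At least 2-fold higher were 15 of the 30, against 4.07% of all genes. INSIG1, which retains SCAP in the endoplasmic reticulum, had 2155 with GANT61 and 628 with DMSO (3.85-fold). Of the enzymes, CYP51A1 (266 with GANT61 and 136 with DMSO, 2.87-fold), LSS (2.61-fold), MVD (2.55-fold), IDI1 (2.52-fold), SQLE (2.14-fold), SC5D (2.09-fold) and FDFT1 (2.07-fold) passed 2-fold. SREBF1, which encodes a sterol regulatory transcription factor, had a log2 ratio of 0.08, and SREBF2 was not detected. The LXR receptor gene NR1H2 had a log2 ratio of 0.44. MYLIP, a ubiquitin ligase, had 220.5 with GANT61 and 368 with DMSO (1.95-fold lower), NR1H3, which encodes LXR alpha, was at least 1.40-fold lower, and the exporter ABCA1 was near the floor with 85.3 and 136, where no fold is given.

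Amino acid transporters were higher in 12 of 19, with a median of 0.56 and none past 2-fold, among them SLC7A5 (8119 with GANT61 and 4526 with DMSO, 1.85-fold) and SLC6A15 (1.87-fold, second probe at 0.67), with SLC7A7 at least 1.73-fold lower. Enzymes of serine, asparagine, proline and one-carbon metabolism were higher in 15 of 18, with a median of 0.49. CBS, which makes cystathionine, had 1123 with GANT61 and 483 with DMSO (2.49-fold), the serine enzyme PSAT1 2710 and 1215 (2.39-fold), and the asparagine synthetase ASNS 8033 and 4561 (1.81-fold, second probe at 0.68). Cytosolic aminoacyl-tRNA synthetases had a median of 0.12 over 16, with CARS1 at 0.62. The other 4 synthetases of the list were not analysed here.

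Genes of large housekeeping complexes differed little, though often in the same direction. Of 73 mitochondrial ribosomal proteins, 54 were lower, against 6277 of all 11527 genes, with a median of -0.23 and none past 2-fold. The extremes of the lower side were MRPL27 (516 with GANT61 and 862 with DMSO, 1.76-fold) and MRPS18C (1150.2 and 1876, 1.74-fold). Splicing factors were lower in 33 of 39, with a median of -0.34. HNRNPA1 was 2.36-fold lower on its brightest probe but at -0.38 on the second, HNRNPH2 was 1.79-fold and HNRNPA0 1.72-fold lower. Pentose phosphate, pyruvate and citric acid cycle enzymes had a median of -0.20 over 38, with IDH2 1.54-fold lower and the iron-regulated ACO1 1.70-fold higher. Proteasome subunits had a median of -0.05 over 31, close to that of all genes, with PSMD7 1.73-fold lower.

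Inflammatory and interferon genes lay apart. Cytokines, chemokines and prostaglandin enzymes were higher in 15 of 18, against 45.4% of all genes. Of the 18, 8 were at least 2-fold higher (7 by their bound), against 4.07% of all genes. Their median was 0.93, and 0.05 with undetected members included. IL24, a cytokine of the IL10 family, had 670.4 with GANT61 and 131 with DMSO (9.47-fold), IL6 445 and 139 (5.23-fold), the cyclooxygenase PTGS2 3519 and 1062 (3.61-fold, second probe at 1.90), IL11 367 and 166 (2.99-fold) and CCL2 681 and 353 (2.12-fold). LIF was at least 2.09-fold and CSF2 at least 1.99-fold higher. Antigen presentation genes were higher in 10 of 24, near the 45.4% of all genes above 0, while 7 were at least 2-fold lower (6 by their bound), against 3.54% of all genes, and none at least 2-fold higher. Of these 7, 4 belong to the immunoproteasome and its activator, with PSMB9 at 209 with GANT61 and 546 with DMSO (3.31-fold), PSMB10 at 821 and 1879 (2.47-fold), PSMB8 at 447 and 880.2 (2.12-fold, second probe -1.21) and the activator PSME2 at 1401 and 3049 (2.26-fold). The guanylate-binding protein GBP2 was 3.15-fold, IDO1, which degrades tryptophan, at least 5.23-fold and GBP1 at least 1.66-fold lower. HLA class I genes went the other way, HLA-C with a log2 ratio of 0.70 and HLA-F with 0.61. The median of the list was -0.31 (-0.16 at the bounds) and 0.03 over genes detected on both arrays.

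Of 12 pregnancy-specific glycoprotein genes on the array, PSG4 was detected on both arrays. Another 6 were detected on 1 array and higher with GANT61, a direction that the detection filter itself favours and that copies sharing probe signal can repeat. PSG5, with 399 with GANT61 and 117 with DMSO, was at least 5.39-fold and PSG3 at least 5.24-fold higher. Of 7 measured keratins, of 55 on the array, 3 were at least 2-fold higher, against 4.07% of all genes. These were KRT80, KRT34 and KRT81 (1803 with GANT61 and 791 with DMSO, 2.45-fold). Of 19 metallothioneins and zinc transporters, 4 were at least 2-fold higher, against 4.07% of all genes, and the median was 0.02. MT1X had 11364 with GANT61 and 3177 with DMSO (3.70-fold), MT1A 12155 and 4499 (2.67-fold), MT1G was 3.11-fold higher, and the importer SLC39A14 2.64-fold (837 and 356). Clock genes were lower in 10 of 13, against 6277 of all 11527 genes, with a median of -0.41. This median was -0.21 over genes detected on both arrays and -0.10 with undetected members. RORA had 301 with GANT61 and 150.3 with DMSO (2.75-fold higher), BHLHE40, a repressor that also answers to hypoxia, 2739 and 1119 (2.63-fold higher), TIMELESS, which also acts at replication forks, 503 and 1010.4 (2.12-fold lower), and DBP was at least 1.41-fold lower.

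Noncoding RNAs were named after their values were seen. Probes for ribosomal RNA were higher: RNA28SN5 had 9229 with GANT61 and 2045 with DMSO (4.79-fold), RNA5S9 656 and 242 (3.32-fold) and RNA18SN5 4405 and 2514 (1.79-fold). RN7SK, which holds back the elongation factor P-TEFb, had 1711 with GANT61 and 672 with DMSO (2.77-fold), and the spliceosomal RNU4-2 339 and 169 (2.61-fold). The Y RNA RNY4 had 691 with GANT61 and 119 with DMSO, a plain ratio of 5.81 and at least 9.98-fold higher after correction. RNY1 had 442 with GANT61 and 118 with DMSO, a plain ratio of 3.75 and at least 6.07-fold higher after correction. RNY3 had 190 and 205 (1.12-fold lower) and RN7SL1, the RNA of the signal recognition particle, 13894 and 12155 (1.14-fold higher). The probe named MIR1978 had 9724 with GANT61 and 1533 with DMSO (6.84-fold higher) and that named MIR1974 had 4044 and 835 (5.34-fold). Most of these RNAs lack a poly(A) tail, and what the probes for them measure in cRNA made from total RNA was not tested. Of 59 measured small nucleolar RNAs, 3 were at least 2-fold higher and 1 lower, near the 4.07% and 3.54% of all genes, and the 3 are the near-identical SNORD3A, SNORD3C and SNORD3D.

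**Figure D5:**
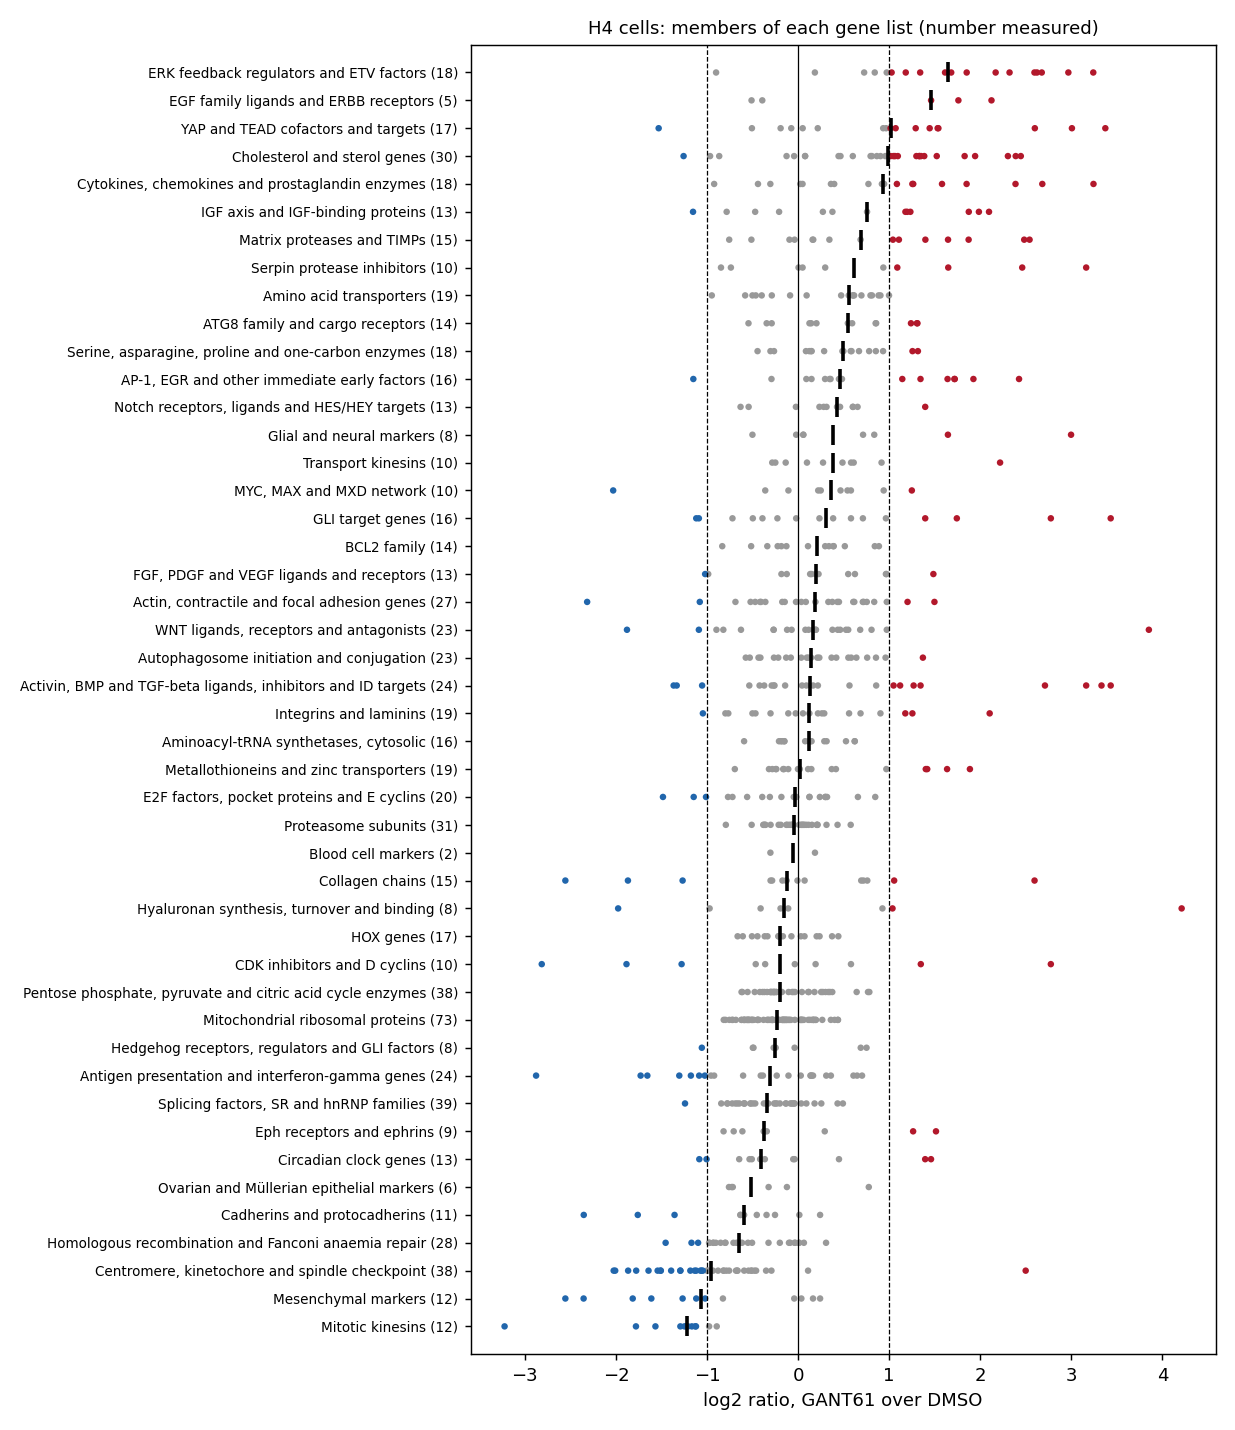
Log2 ratio of GANT61 over DMSO (x) of each measured member (points) of 46 gene lists (y, number measured in brackets), red at least 2-fold higher, blue at least 2-fold lower, with the list median as a black bar and dashed lines at 2-fold. Medians run from 1.65 for ERK feedback genes to -1.22 for mitotic kinesins.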

How the data were processed

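Total RNA of 1 GANT61 and 1 DMSO culture of H4 was hybridised to Illumina HumanHT-12 V4 arrays, per the labels. The authors deposited normalized intensity values on a linear scale, and how they normalized them is not given in the sources used here. The deposited detection p-value of each probe comes from a second table, whose columns carry the line's name and a number without the treatment. From it only the number of H4 arrays with a detection p under 0.01 was used, and its 4 signal columns were not used. The intensities of all 4 arrays were background-corrected (normexp, offset 16), taken to log2 and quantile-normalized with limma 3.58.1 in R 4.3.3, and the procedure was tested on simulated data. Quantile normalization over both lines assumes like distributions of signal.

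Probe names came from the deposited table and were updated through RefSeq (GRCh38.p14): 27035 probes held a current symbol, 4626 a synonym of 1 symbol, 3485 were named by gene number, 8759 kept the file's name, and 3270 with no name and 54 with a calendar date for a name stayed unnamed. Genes on the Y chromosome alone and XIST were left out. Each gene took its brightest probe. For a gene detected on 1 array, the dimmer array was held at no less than the lowest log2 signal among genes detected on both (6.37 for GANT61 and 6.18 for DMSO). A 2-fold ratio was the threshold for counting. Named genes were the 25 highest and 25 lowest ratios, the 10 highest and 10 lowest bounds, list members past 2-fold or otherwise the 4 with the widest ratios, and the Hedgehog list; further members were named after their values were seen. The comparison, the 46 gene lists and the motifs were chosen with earlier results of these data known. The single array in each group limits the precision, and no test was possible. Some genes are not reported here. Alternatives to the background correction, scale, arrays, probe rule and detection filter were tried.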

Additional observations from a re-analysis of the deposited data

Results flagged for a closer look

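Lists whose median log2 ratio of GANT61 over DMSO had opposite signs in H4 and in ES2, each beyond the spread between probes of its line, are given here. That spread is the SD for 1 probe, 0.22 in H4 and 0.14 in ES2. It is not the spread of a list median and leaves out the difference between cultures. The difference between the lines was not tested, since each has 1 array per treatment. AP-1, EGR and other immediate early factors had a median of 0.466 over 16 measured genes in H4 and -0.20 over 14 in ES2. Amino acid transporters had 0.556 over 19 genes in H4 and -0.17 over 14 in ES2. Mesenchymal markers had -1.069 over 12 genes in H4 and 0.21 over 9 in ES2. The genes measured in each line are not the same set.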

How the results depend on the processing

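With 469 genes at least 2-fold higher and 408 lower in the main setting, omitting the background correction gave 329 and 240, an offset of 50 gave 338 and 246, and the authors' scale gave 256 and 181. Normalizing the H4 arrays alone gave 379 and 306, averaging probes 461 and 375, a detection p under 0.05 479 and 410, no detection filter 484 and 423, and genes detected on both arrays 344 and 281. Of the 877 genes past 2-fold, none with a value changed sign in these settings, and 436 of 875 stayed past 2-fold on the authors' scale, against 569 of 877 without background correction. Of 46 list medians, 6 changed sign in at least 1 setting: TGF-beta, WNT, antigen presentation, collagen, hyaluronan and blood cell markers. Without a detection filter, which adds members whose chosen probe neither array detected, 4 had the other sign and 26 more moved by over 1.5 times. The median of the antigen presentation list was 0.0297 over genes detected on both arrays, against -0.31 in the main setting, a set without the genes on 1 array. On the authors' scale 11 list medians differed from the main value by more than the probe spread, and without a detection filter 16 did. A higher background offset or uncorrected background brings dim ratios toward 0, and signal near background limits the bounds of the 2039 genes on 1 array. No paired analysis was possible because each group has 1 array.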

Other observations

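Runs of at least 3 neighbouring measured genes, all at least 2-fold different in the same direction, were found in 7 places of the RefSeq gene order, and their genes were named after their values were seen. The longest run held the 7 pregnancy-specific glycoprotein genes on chromosome 19. On chromosome 6 the replication-dependent histone genes H4C3 (2744 with GANT61 and 9116 with DMSO, 3.52-fold lower), H2AC6 (155 and 402, 3.74-fold lower) and H2BC5 (359 and 773, 2.39-fold lower) stood beside H3C7, which 1 array detected. On chromosome 5 the glutaredoxin GLRX (2045 with GANT61 and 1067 with DMSO, 2.06-fold), the elongation factor ELL2 (301 and 150.3, 2.75-fold) and the calpain inhibitor CAST (484 and 271, 2.03-fold) were higher. On chromosome 16 the metallothionein genes MT1A, MT1G and MT1X stood with MT1IP (740.3 with GANT61 and 257 with DMSO, 3.50-fold higher), and on chromosome 17 SNORD3A (359.7 and 192, 2.33-fold higher) with 2 near-identical copies. Copies that share probe signal can make such runs, and this was not tested.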
